A study of Drosophila melanogaster with 36 samples.

Results

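Kc167 cells kept 72 h in medium with 40 µg/mL methyl methanesulfonate (MMS) were compared with cells kept 72 h in medium without it. The comparison used the 8 arrays that the submitters labelled as MMS 72 h or control 72 h, 4 of each, out of 36 arrays in the series, and every one of the 11981 genes that could be read singly. Kc167 was established from embryos of Drosophila melanogaster and has traits of hemocytes, the blood cells of the fly, and no transgene or knockdown was named for any group. Control cultures (0 µg/mL MMS) were also collected at 0, 1, 8 and 24 h and cultures with 40 µg/mL MMS at 1, 8 and 24 h, again with 4 arrays each, and all of them had fresh medium at time 0. The series describes the 4 replicates as cultures grown independently, but all come from 1 cell line, so the spread between arrays says nothing of other fly cells. RNA was hybridised to Affymetrix Drosophila Genome 2.0 arrays, and values are log2 expression after robust multi-array averaging (RMA).

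MMS is an alkylating agent that methylates DNA bases and also reacts with RNA, proteins and glutathione. Fly cells answer damage of this kind through p53 and the JNK kinase pathway, and answer reactive chemicals with detoxification enzymes, chaperones and the transcription factor cnc, the orthologue of Nrf2, which Keap1 holds in check. Hemocytes, from which the line takes its features, carry phagocytic receptors, secrete basement membrane and make immune peptides.

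Arrays of a group correlated at 0.9934 to 0.9974 among the controls and 0.9909 to 0.9973 among the MMS arrays, and at 0.9795 to 0.9862 between the groups. The median SD of a gene over 4 arrays was 0.14 in each group. Over the 3 housekeeping transcripts with probes at both ends, the 3′ minus 5′ difference was 0.54 to 0.63 in controls and 0.69 to 0.72 in MMS arrays, a difference of 0.13 (two-sided exact permutation test, p = 0.0286, the smallest that 4 against 4 arrays allow), while the other arrays of the series spanned 0.5 to 1.67. The part of this difference in the results was not tested. MMS replicate 2 was the MMS array nearest to the control mean for 257 of the 509 genes called below (50.5%), and without it 491 genes were higher and 79 lower. Scan dates and other batches were not given in the sources used here. Fewer cells of a kind and less RNA per cell cannot be told apart in whole cultures. A normalized array also shows only how a gene moved against the others on it.

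At 72 h of MMS, 429 genes were higher (3.58% of those tested) and 80 were lower (0.668%) by at least 2-fold with an adjusted p under 0.05 (limma, Benjamini-Hochberg over all genes, n = 4 arrays per group). Of these, 70 increases and 12 decreases reached 4-fold, and 15 increases and 1 decrease reached 8-fold. With no fold required, the same threshold on p gave 2039 increases (17.0%) and 1492 decreases (12.5%). The MMS arrays lay wholly above the control arrays for 427 of the 429 and wholly below them for 79 of the 80, where 15.9% and 12.3% of all genes were separated in these directions. The median change of all genes was -0.05, with quartiles of -0.18 and 0.19. The balance between increases and decreases depended on the scaling. The array medians over genes were 5.54 to 5.56 in controls and 5.67 to 5.77 with MMS. Increases made up 84.3% of the 2-fold changes and 57.7% of those at the adjusted p alone, but 66.7% and 21.9% after each array was centred on its median, which moved the median change to -0.21, and 69.6% and 48.0% after a further quantile normalization. Because centring alone calls 11.7% of all genes higher and 41.8% lower at the adjusted p, the counts of gene groups are given below with those after centring.

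The median control level of the 429 genes that rose was 6.17, against 7.84 with MMS, where the median control level of all genes was 5.55. Of these genes 109 had a control mean under 5, as did 5472 of all genes. The 80 genes that fell had medians of 9.16 in control and 7.54 with MMS.

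The largest increase was that of eiger (egr), the tumour necrosis factor ligand of the fly, which signals through JNK. Its values were 5.54, 5.60, 5.89 and 5.57 in the controls and 10.01, 9.80, 10.14 and 10.31 with MMS. The groups were far apart, and the change of 4.41 ± 0.12 (SE, 21.3-fold, adjusted p = 1.24e-23) was matched by 4.02 on the gene's other probe set. The secreted BMP modulator magu, whose MMS arrays read 9.69, 9.27, 9.97 and 9.91 against 6.05, 6.01, 6.22 and 6.46, rose by 3.53 ± 0.13 (adjusted p = 1.01e-20). CG14642 (3.87 ± 0.13), CG9150 (3.69 ± 0.15), sprt (3.58 ± 0.16), CG3961 (3.53 ± 0.20), the extracellular protein fat-spondin (3.30 ± 0.16), the sugar transporter Slc45-1 (3.29 ± 0.12) and the leucine-rich repeat protein windpipe (wdp, 3.01 ± 0.17) were also among the 15 largest increases, as were CG6870 (3.30 ± 0.16), CG14787 (3.12 ± 0.11), CG34232 (3.02 ± 0.15) and CG3246 (3.01 ± 0.13).

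The largest decrease against the controls of 72 h was that of CBP, a calcium-binding protein. It had control values of 9.31, 9.40, 9.33 and 9.04 and MMS values of 6.39, 5.85, 6.15 and 6.60, a change of -3.02 ± 0.16 (adjusted p = 1.01e-16). The Argonaute protein AGO3 followed (-2.76 ± 0.26), then the cuticle gene TwdlE (-2.71 ± 0.25), the pigmentation gene ebony (e, -2.69 ± 0.19), the neprilysin-like Nepl9 (-2.57 ± 0.16), the DEAD-box helicase Dbp80 (-2.57 ± 0.19) and the adhesion protein roughest (rst, -2.39 ± 0.25). The pigmentation gene yellow (y), the adaptor arouser (aru, -2.27 ± 0.10), CG4793 (-2.20 ± 0.14), GstD2, the hemocyte surface protein hemese (He), CG13796 (-1.92 ± 0.19), NimB5 and CG10163 (-1.82 ± 0.17) completed the 15. The fall of CG4793 rests on the brightest of its 3 probe sets, since the others read -0.33 and -0.08. CBP averaged 4.24 in controls at 0 h, 9.27 in controls at 72 h and 6.25 with MMS at 72 h. Against the controls of 0 h, the MMS arrays were thus higher for CBP, as for CG13796 (1.38), CG10163 (1.36), TwdlE, e, y and GstD2. They were lower for Dbp80 (-2.65), CG4793 (-2.17), aru (-1.31), NimB5 (-1.0), AGO3 (-0.98) and He (-0.83). Nepl9 and rst did not pass the adjusted p in this comparison, which shares the MMS arrays.

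**Figure D1:**
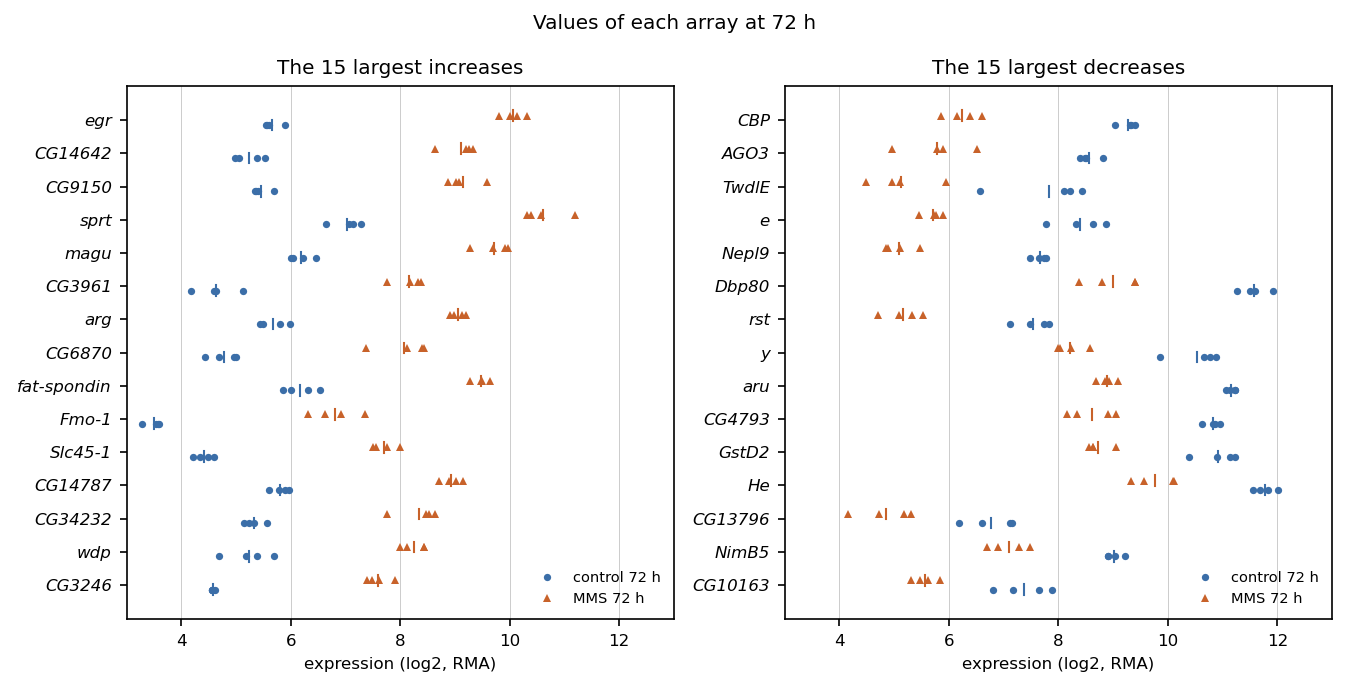
Expression (log2, RMA) of the 15 genes with the largest increases and the 15 with the largest decreases at 72 h, with 1 point per array (circles, control 72 h, n = 4; triangles, MMS 72 h, n = 4) and a line at each group's mean. The genes were chosen to have groups that do not overlap, and egr goes from a mean of 5.65 to 10.07.

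Other genes of TNF and JNK signalling went both ways, by less than 2-fold. Of 20 measured genes of TNF and JNK signalling, 6 passed the adjusted p as higher and 3 as lower with a median of 0.08 (4 and 6 after centring, with a median of -0.09), and egr alone passed 2-fold. The kinase Mkk4 was higher (0.83 ± 0.14), as was the adaptor Traf4 (0.75 ± 0.14), whose other probe set read -0.08. The adaptor Tab2 (-0.78 ± 0.13) and Jra, the fly Jun (-0.59 ± 0.08), were lower, and kayak (kay), the fly Fos, was at 0.24 ± 0.16 (adjusted p = 0.261).

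In the list of p53, checkpoint and apoptosis genes, 7 of 20 were higher and 4 lower (6 and 7 after centring). The effector caspase Dcp-1 had control values of 8.29, 8.34, 8.35 and 8.21 and MMS values of 9.49, 9.47, 9.62 and 9.40, a rise of 1.20 ± 0.08 (adjusted p = 2.09e-13) between groups that were each tight. Corp, a regulator of p53 (1.11 ± 0.16), the double-strand break sensor nbs (1.01 ± 0.15), the apoptosome adaptor Dark (0.82 ± 0.17) and the caspase Strica (0.52 ± 0.10) were higher, and the inhibitor of apoptosis Diap2 was lower (-0.42 ± 0.09). The probe set used for p53 read -0.20 ± 0.11 (adjusted p = 0.185). Its other probe set read 0.85, so p53 itself has no single direction at 72 h in these data.

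DNA repair genes had 10 members higher and 3 lower of 34, none by 2-fold (median 0.16, and 6 higher and 6 lower after centring). The nucleotide excision nuclease Ercc1 (0.67 ± 0.13), the translesion polymerase Rev1 (0.67 ± 0.16) and the mismatch repair gene Pms2 (0.50 ± 0.11) were higher, and the apurinic endonuclease Rrp1 was lower (-0.69 ± 0.13).

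Most genes of the cell cycle did not pass the test at 72 h, and most were lower at 24 h. Of 44 DNA replication genes 6 were lower and 3 higher (median -0.19), against 32 lower and 1 higher at 24 h (median -0.97), and of 27 mitosis genes 7 were lower and 0 higher (median -0.06), against 20 lower and 0 higher at 24 h (median -0.79). Of all genes, 10.2% passed the adjusted p as higher and 10.0% as lower at 24 h. The effect at 72 h minus that at 24 h, tested as an interaction, was higher for 27 replication genes and 16 mitosis genes at the adjusted p and lower for 0 of either, where 9.13% of all genes passed it in the higher and 4.53% in the lower direction. The kinesin ncd, which organises spindle poles, went from -1.98 at 24 h to -0.63 ± 0.14 at 72 h (difference 1.35, adjusted p = 3.32e-06), and the replicative helicase subunit Mcm5 from -1.56 to -0.56 ± 0.14 (difference 1.00, adjusted p = 0.000335). In controls ncd averaged 10.85 at 0 h and 9.41 at 72 h, and Mcm5 10.87 and 9.08. After centring, 22 replication genes and 10 mitosis genes were lower at 72 h.

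The effect of MMS at 72 h was compared with that at 24 h gene by gene, to ask which responses appeared late and which were lost. The arrays of the 2 times are separate. At 24 h, MMS raised 287 genes (2.4%) and lowered 198 (1.65%) past both thresholds. Genes higher at both times numbered 147, or 34.3% of those higher at 72 h and 51.2% of those higher at 24 h, and genes lower at both numbered 27, or 33.8% and 13.6%. The effect was at least 2-fold higher at 72 h than at 24 h for 331 genes (2.76%) and lower for 110 (0.918%). Of the 429 genes higher at 72 h, 133 were not called at 24 h and had an effect called higher at 72 h, while 20 had an effect called lower at 72 h than at 24 h. Of the 80 lower genes, 17 were not called at 24 h and had an effect called lower at 72 h.

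Arginase (arg), which splits arginine into urea and ornithine, had the largest rise in effect between the times. It read 5.81, 5.44, 5.98 and 5.50 in controls and 8.98, 9.20, 8.90 and 9.12 with MMS, a rise of 3.37 ± 0.13 (adjusted p = 8.01e-20), where the effect at 24 h had been 0.04. The monooxygenase Fmo-1 read 3.60, 3.54, 3.29 and 3.57 in controls and 6.32, 6.91, 7.35 and 6.62 with MMS, a rise of 3.30 ± 0.12 after 0.18 at 24 h. The 2 differences between times were 3.33 ± 0.19 (adjusted p = 5.29e-15) and 3.12 ± 0.17 (adjusted p = 3.04e-15). The stress-induced DNase Sid (2.96 ± 0.15, after 0.03 at 24 h), the ABC transporter Atet (2.67 ± 0.15, after -0.15), the triglyceride synthase Dgat2 (2.79 ± 0.14, after 0.14), CG3699 (2.89 ± 0.13, after 0.19) and CG13907 (2.18 ± 0.21, after -0.47) behaved in the same way, with the 2 groups separated at 72 h in each.

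**Figure D2:**
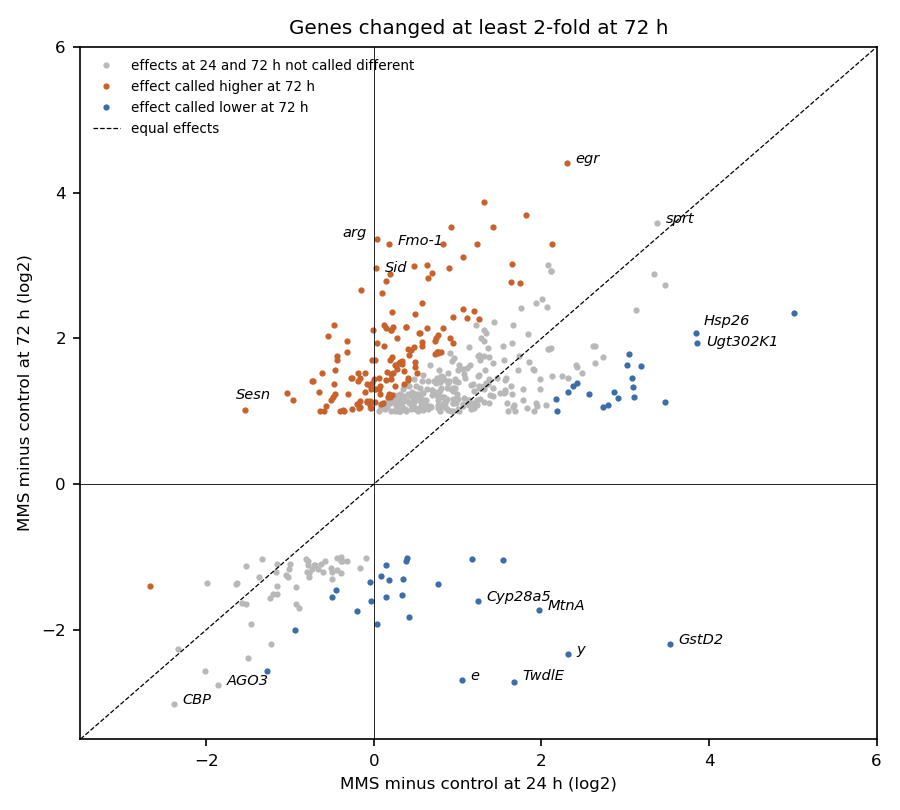
Change with MMS at 24 h (horizontal, log2) against the change at 72 h (vertical, log2) for the 509 genes changed at least 2-fold at 72 h, coloured by whether the 2 effects were called different, with a dashed line where both are equal. Genes with little effect at 24 h, such as arg (0.04 and 3.37), lie on the vertical axis, and GstD2 (3.53 and -2.19) lies in the lower right quadrant.

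Genes changed in opposite directions at the 2 times were few. Of the 80 lower genes 8 had been called higher at 24 h, GstD2, y, e, TwdlE, MtnA, Cyp28a5, vir-1 and CG8620, and of the 429 higher genes 2 had been called lower, the stress-response gene Sesn and the metalloprotease Meltrin (vir-1, CG8620 and Meltrin are named here because their counts are small, after their values were seen). The calls of 3 of these genes were at the edge of 2-fold. Sesn was at 0.96 to 1.17 and past 2-fold in 3 of the 8 fits that left out 1 array, and at 0.86 after centring, and vir-1 (-1.11 to -0.95) and CG8620 (-1.11 to -0.93) were past it in 5 of 8 each, while the other 7 kept their calls in all 8. In each of the 8 genes the control level was higher at 72 h than at 0 h, by 2.18 in vir-1 to 5.16 in y. GstD2, a glutathione S-transferase, averaged 5.86 in controls at 0 h, 6.42 at 24 h and 10.91 at 72 h, and 9.95 and 8.72 with MMS at 24 and 72 h. At 72 h it read 11.23, 10.90, 11.14 and 10.39 in controls and 8.64, 8.63, 9.05 and 8.57 with MMS, a change of -2.19 ± 0.18 (adjusted p = 1.43e-11). Against the controls of 0 h the same MMS arrays stood 2.86 ± 0.18 higher, and these 2 comparisons share the MMS arrays. Yellow (y), which acts in black pigment formation, read 10.66, 10.77, 10.89 and 9.85 in controls and 8.03, 8.00, 8.58 and 8.24 with MMS (-2.33 ± 0.18), from 5.38 in controls at 0 h. Ebony, an enzyme that joins beta-alanine to dopamine, read 8.63, 8.88, 8.32 and 7.77 in controls and 5.76, 5.73, 5.46 and 5.90 with MMS, from 4.73 at 0 h. The metallothionein MtnA, which binds copper and other metals, went from a change of 1.97 at 24 h to one of -1.73 ± 0.29 at 72 h (adjusted p = 1.81e-05). Control replicate 4 was the lowest control array for GstD2, y, e, TwdlE and MtnA, and without it the changes were -2.37, -2.56, -2.90, -3.13 and -2.02. GstD5, the gene with the largest fall in effect between the times (5.88 at 24 h and -0.67 ± 0.18 at 72 h), averaged 5.09 in controls at 0 h and 12.41 at 72 h.

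**Figure D3:**
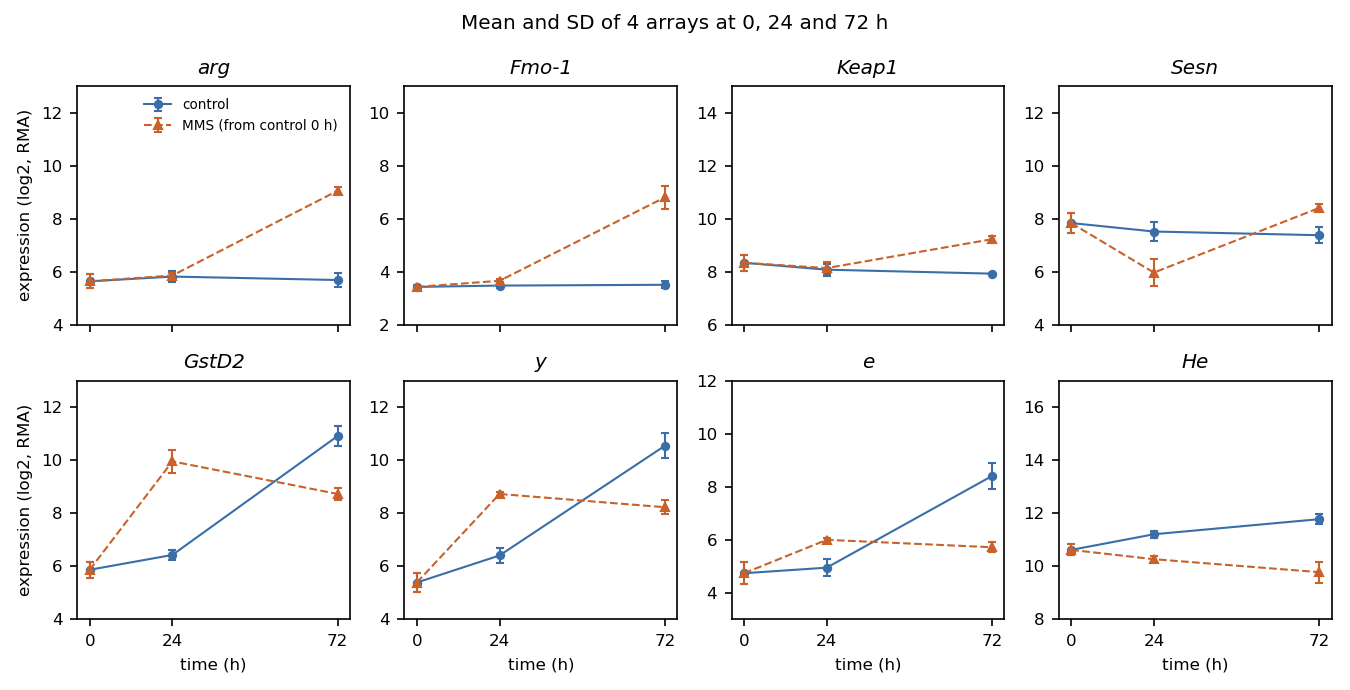
Mean expression (log2, RMA) with SD of 4 arrays at 0, 24 and 72 h (solid line, control; dashed line, MMS, which starts from the control of 0 h) for 4 genes called higher with MMS at 72 h and not at 24 h (arg, Fmo-1, Keap1, Sesn) and 4 that ended below control (GstD2, y, e, He). The GstD2 control mean goes from 6.42 at 24 h to 10.91 at 72 h and passes the MMS mean of 8.72.

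Detoxification enzymes were prominent among the increases. Cytochrome P450 genes, which oxidise lipophilic compounds, had 36 of 88 members higher and 2 lower, 15 and 1 of them by 2-fold (31 higher and 28 lower after centring, 12 and 1 by 2-fold). The gene Cyp305a1 read 4.24, 4.45, 4.16 and 4.15 in controls and 7.01, 6.88, 7.12 and 7.13 with MMS (2.78 ± 0.14). A set of Cyp6 genes was higher at 72 h without a change called at 24 h, namely Cyp6a13 (2.19 ± 0.18, after 0.12), Cyp6w1 (1.96 ± 0.20, after -0.32), Cyp6a14 (1.94 ± 0.13, after 0.04), Cyp6a8 (1.74 ± 0.15, after 0.22) and Cyp6a2 (1.24 ± 0.13, after -0.31), and the difference between times passed the test in each (adjusted p from 3.28e-09 to 1.30e-06). In controls Cyp6w1 averaged 7.89 at 0 h and 6.35 at 72 h, and Cyp6a8 9.68 and 8.26. With MMS at 72 h they averaged 8.31 and 10.00. Controls moved less in Cyp6a13 (4.50 and 4.32), Cyp6a14 (6.41 and 6.29) and Cyp6a2 (5.87 and 5.78). The effect on Cyp4p1 (1.13 ± 0.18, after 3.48) and Cyp28d1 (1.06 ± 0.14, after 2.73) was smaller at 72 h than at 24 h. Both were still above control at 72 h. Between these times their control means rose from 6.24 to 10.00 and from 7.76 to 10.54. Their MMS means rose from 9.72 to 11.13 and from 10.49 to 11.60. Cyp28a5 was the P450 lower by 2-fold (-1.60 ± 0.12).

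Other enzymes of the first phase of detoxification and hydrolases had 10 of 21 members higher and 0 lower (9 and 1 after centring). The carboxylesterase alpha-Est7 read 5.15, 5.32, 5.31 and 5.83 in controls and 8.45, 8.03, 8.25 and 8.58 with MMS, a rise of 2.92 ± 0.12. Its relative alpha-Est3 (1.81 ± 0.13), the aldehyde dehydrogenase Aldh7A1 (1.41 ± 0.14) and Fmo-2 (1.14 ± 0.10) rose too. UDP-glycosyltransferases, which add sugars to such compounds, had 12 of 35 members higher, 8 of them by 2-fold, and 2 lower (11 and 12 after centring). Ugt302E1 was higher by 2.14 ± 0.15 and Ugt302K1 by 1.94 ± 0.13, the latter after 3.86 at 24 h. Between 24 and 72 h Ugt302K1 rose from 5.29 to 9.01 in controls and from 9.15 to 10.96 with MMS. Glutathione S-transferases had 12 of 36 higher and 5 lower (10 and 8 after centring), with 3 higher by 2-fold, GstS1 (1.53 ± 0.12), GstD9 (1.29 ± 0.18) and GstE11 (1.09 ± 0.17). At 24 h, 15 of the 36 had been higher by 2-fold, and the interaction called the effect of 11 lower at 72 h and of 1 higher. Among exporters, Mdr49, a P-glycoprotein relative, rose by 1.11 ± 0.14 in a list with 4 of 10 members higher and 0 lower (3 and 2 after centring).

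Antioxidant genes had 11 of 27 members higher and 2 lower (9 and 5 after centring). Keap1, the inhibitor of cnc, read 7.92, 7.89, 7.96 and 7.90 in controls and 9.26, 9.07, 9.17 and 9.37 with MMS. Its rise of 1.30 ± 0.14 (adjusted p = 6.81e-09) followed 0.06 at 24 h, a difference that passed the test (1.24, adjusted p = 2.76e-05). The transcripts of cnc (0.45 ± 0.19, adjusted p = 0.0829) and of its partner maf-S (-0.20 ± 0.20, adjusted p = 0.475) did not pass. Catalase (Cat, 0.94 ± 0.09), thioredoxin TrxT (1.69 ± 0.12) and thioredoxin reductase Trxr1 (0.44 ± 0.08) were higher, and the peroxidase Irc was lower (-1.05 ± 0.10). The superoxide dismutase Sod3 rose by 1.89 ± 0.12 on its brightest probe set and read 0.06 on the other. In the heat-shock list, 11 genes of chaperones and their regulator, 5 were higher and 3 lower (4 and 4 after centring). Hsp26 rose by 2.08 ± 0.14, the co-chaperone starvin (stv) by 1.61 ± 0.20 and Hsp27 by 1.12 ± 0.09, and the heat-shock transcription factor Hsf was lower (-0.65 ± 0.13). Genes of endoplasmic reticulum stress had 2 of 22 higher and 4 lower (1 and 10 after centring), with the sensor kinase Ire1 at 0.66 ± 0.16 and the chaperone partner P58IPK at -0.53 ± 0.10.

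Before centring, genes of amino-acid supply were mostly higher. The integrated stress response slows translation and raises amino-acid genes through crc, the fly ATF4. In a list of this response and amino-acid supply, 17 of 24 genes were higher and 1 lower (median 0.47, and 8 and 2 after centring). Its 16 genes of amino-acid synthesis and transport had 11 higher and 1 lower. Its 8 kinases, factors and feedback genes had 6 higher and 0 lower. Glutamine synthetase Gs2 read 8.76, 8.78, 8.54 and 8.76 in controls and 10.56, 10.75, 10.55 and 10.57 with MMS (1.90 ± 0.11). The pseudokinase tribbles (trbl, 1.23 ± 0.10), Cth, which makes cysteine (1.03 ± 0.11), Sesn (1.02 ± 0.21) and glutamine synthetase Gs1 (1.01 ± 0.13) also passed 2-fold, and crc itself was higher by 0.30 ± 0.08. Cth and Gs1 had gone down in controls, from 12.52 at 0 h to 10.99 at 72 h and from 11.29 to 9.59, and averaged 12.02 and 10.60 with MMS at 72 h. Sesn, a leucine-sensing inhibitor of TOR signalling, read 7.19, 7.30, 7.19 and 7.82 in controls and 8.52, 8.30, 8.28 and 8.50 with MMS after a change of -1.54 at 24 h.

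Genes of arginine, proline and polyamine metabolism had 11 of 17 members higher and 1 lower (median 0.36, and 7 and 3 after centring). Among them beside arg were spermidine synthase (SpdS, 1.17 ± 0.17), the ornithine decarboxylase antizyme Oda (1.11 ± 0.09), ornithine aminotransferase (Oat, 0.78 ± 0.11), the aspartate aminotransferase Got2 (0.82 ± 0.10) and the proline oxidase slgA (0.36 ± 0.07), whereas glutamate dehydrogenase (Gdh) was lower (-0.77 ± 0.11). At the adjusted p the interaction was higher at 72 h for 6 of the 17, arg, Got2, Oat and slgA among them, and lower for 2. Of 32 aminoacyl-tRNA synthetases, which load amino acids onto tRNAs, 14 were higher and 0 lower (median 0.23, and 8 and 0 after centring), none by 2-fold, with ValRS (0.96 ± 0.13) and ThrRS (0.61 ± 0.10) among them.

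**Figure D4:**
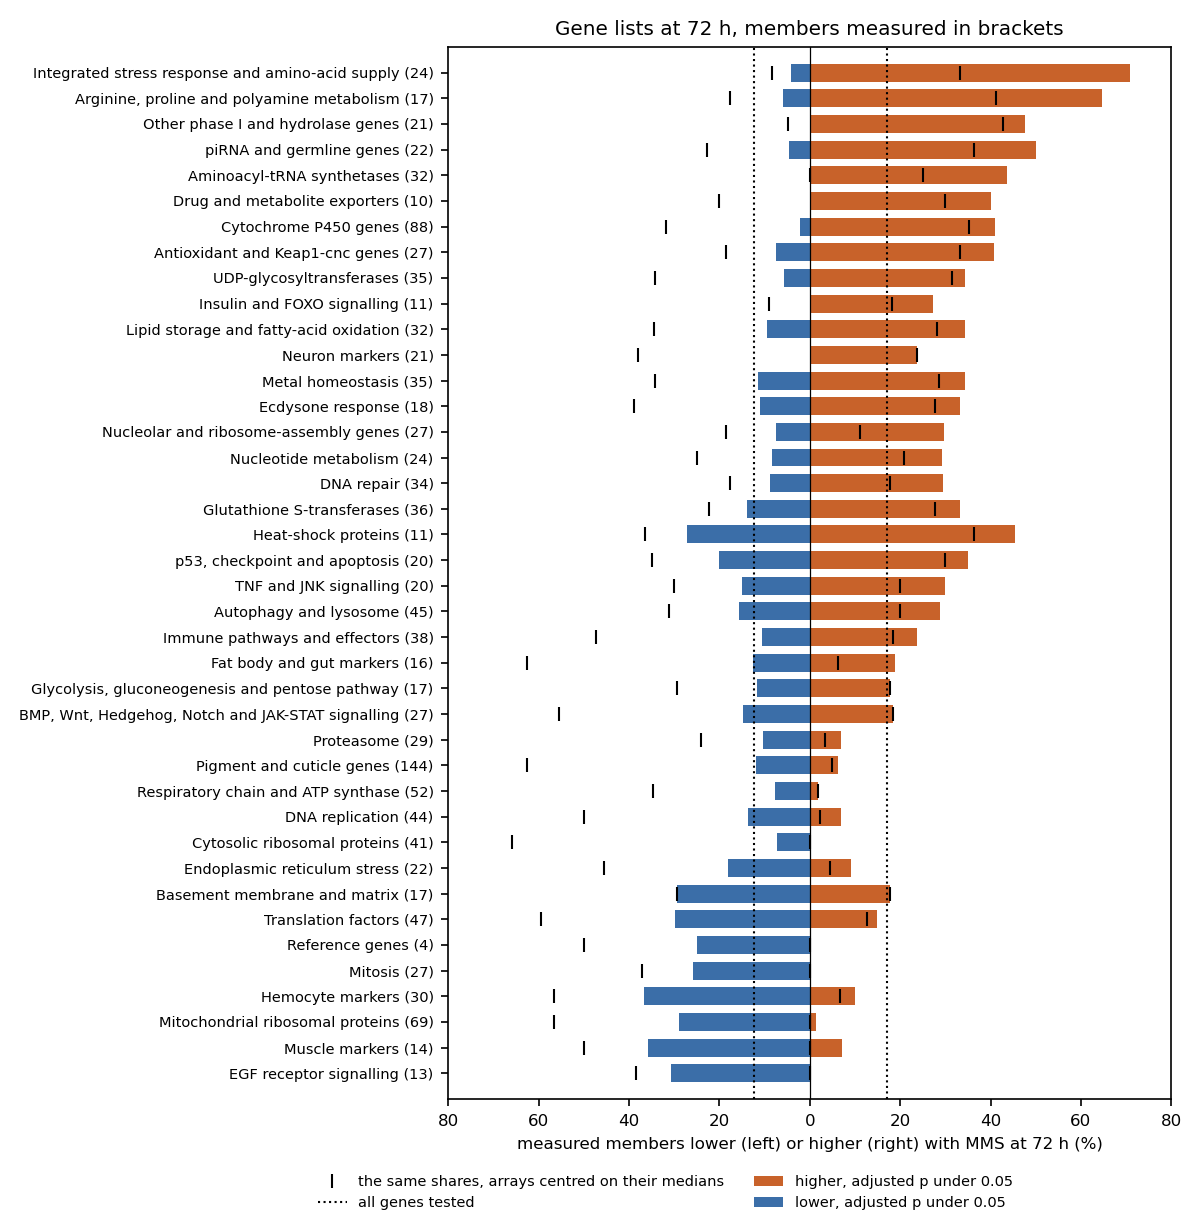
Share of the measured members of each gene list that were lower (left) or higher (right) with MMS at 72 h at an adjusted p under 0.05 (%), with black ticks for the same shares after each array was centred on its median and dotted lines for all genes (12.5% lower and 17.0% higher). The integrated stress response has 17 of 24 members higher, and the mitochondrial ribosomal proteins have 20 of 69 lower and 1 higher.

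Mitochondrial ribosomal proteins had 20 of 69 members lower and 1 higher (median -0.29). Of 41 cytosolic ribosomal proteins 3 were lower and 0 higher (median -0.10), under the share of all genes in each direction. After centring 39 of the 69 and 27 of the 41 were lower. The mitochondrial protein mRpL39 read 10.31, 10.30, 10.59 and 10.45 in controls and 9.41, 9.45, 9.45 and 9.33 with MMS (-1.0 ± 0.14), and mRpS22 (-0.87 ± 0.14) and mRpS29 (-0.80 ± 0.12) followed. Respiratory chain subunits had 4 of 52 lower and 1 higher, and the proteasome 3 of 29 lower and 2 higher, both under the share of all genes in each direction (18 and 1, and 7 and 1, after centring). Translation factors had 14 of 47 lower and 7 higher (28 and 6 after centring), with the termination factor eRF1 at -0.62 ± 0.07 and the cap-binding protein eIF4E6 at 1.00 ± 0.16. Nucleolar and ribosome-assembly genes had 8 of 27 higher and 2 lower (3 and 5 after centring), and CG12325 was higher by 1.30 ± 0.19. It averaged 9.01 in controls at 0 h, 6.24 in controls at 72 h and 7.53 with MMS at 72 h, so that the MMS arrays lay between the controls of the 2 times.

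Metabolic genes with 2-fold increases included rosy (ry), the xanthine dehydrogenase that makes urate, at 5.18, 5.57, 5.19 and 5.38 in controls and 7.70, 7.31, 7.92 and 7.91 with MMS (2.38 ± 0.13). The purine synthesis gene Gart (1.15 ± 0.10), the adenylate kinase Adk3 (1.40 ± 0.16) and the pyrimidine-degrading pyd3 (1.26 ± 0.15) rose with it, in a list with 7 of 24 members higher and 2 lower (5 and 6 after centring). In lipid metabolism 11 of 32 were higher and 3 lower (9 and 11 after centring). The triglyceride synthase midway (mdy, 1.35 ± 0.13, after 0.07 at 24 h) and the lipase Lip4 (1.06 ± 0.14, after 0.16) rose, as did the carnitine palmitoyltransferase withered (whd, 1.43 ± 0.12), whose other probe set read -0.12. In controls mdy averaged 9.17 at 0 h and 7.63 at 72 h, against 8.98 with MMS at 72 h. Of 17 genes of glycolysis, gluconeogenesis and the pentose pathway 3 were higher and 2 lower, close to the shares of all genes (3 and 5 after centring). Pepck2, of gluconeogenesis, rose by 1.52 ± 0.14 after -0.11, and the trehalose transporter Tret1-1 was lower (-0.88 ± 0.19). Among 45 genes of autophagy and the lysosome 13 were higher and 7 lower (9 and 14 after centring), with Atg18b at 1.64 ± 0.14, Atg7 at 1.08 ± 0.10, the cathepsin CtsL1 at 0.49 ± 0.07 and the kinase partner Atg13 at -0.97 ± 0.13. Among 35 metal genes 12 were higher and 4 lower (10 and 12 after centring). The zinc exporter ZnT77C (1.60 ± 0.14), the transferrin Tsf3 (1.45 ± 0.16, after 0.06 at 24 h), Irp-1B (1.10 ± 0.10) and Zip99C (1.06 ± 0.10) were higher, and the zinc importer foi was lower (-1.02 ± 0.20).

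Of 30 hemocyte markers 11 were lower and 3 higher (median -0.16), and 5 were lower by 2-fold. In a separate fit of genes with a mean of at least 5, which held 18 of the markers, 6 were lower and 3 higher (median 0.02). The markers left out of it have low signals over the series. Hemese (He) read 12.02, 11.56, 11.84 and 11.68 in controls and 10.11, 10.09, 9.32 and 9.57 with MMS, a change of -2.0 ± 0.17 (adjusted p = 2.75e-11). The scavenger receptor Sr-CI read 5.83, 6.70, 6.21 and 5.37 in controls and 4.22, 4.20, 4.18 and 4.54 with MMS (-1.74 ± 0.16). Both genes had groups that did not overlap. The Nimrod genes NimB5 (-1.92 ± 0.16), NimB1 (-1.46 ± 0.16) and NimC1, a receptor for bacteria (-1.31 ± 0.15), were lower, and the prophenoloxidase PPO3 was lower by less (-0.62 ± 0.14). Controls had moved as well, since NimC1 averaged 5.28 at 0 h and 8.27 at 72 h in controls, against 6.97 with MMS at 72 h. The receptors for dying cells croquemort (crq, 0.94 ± 0.16) and Draper (drpr, 0.62 ± 0.17) went the other way. After centring, 17 of the 30 were lower and 2 higher. The summed level of the 30 markers was 231.2 to 235.4 in controls and 221.4 to 226.9 with MMS.

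Basement membrane and matrix genes, many of them products of hemocytes, had 5 of 17 lower and 3 higher, with the same counts after centring. Papilin (Ppn) read 9.50, 9.59, 9.28 and 9.17 in controls and 7.89, 7.98, 7.94 and 8.25 with MMS (-1.37 ± 0.26), glutactin (Glt) was at -1.06 ± 0.21 and the collagen IV chain viking (vkg) at -0.75 ± 0.23. SPARC, which binds collagen IV, was higher (0.59 ± 0.08). Peroxidasin (Pxn) rose by 1.42 ± 0.18 on its brightest probe set and read -0.19 on the other. Of 38 genes of immune pathways and effectors 9 were higher and 4 lower (7 and 18 after centring). Among negative regulators of the Imd pathway, pirk rose (1.22 ± 0.14) and PGRP-LF fell (-1.30 ± 0.14), and the NF-kappaB factor Relish (Rel) was lower (-0.79 ± 0.12). In the Toll pathway the ligand spatzle (spz, 1.20 ± 0.17) and the inhibitor cactus (cact, 0.88 ± 0.12) were higher. Of 16 measured immune effectors 1 was higher and 0 were lower, but only 2 of the 16 had a mean of at least 5, and low signals limit decreases.

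Among signalling lists, EGF receptor signalling had 4 of 13 lower and 0 higher (5 and 0 after centring), but 2 lower with the mean over each gene's probe sets. Its feedback inhibitor argos (aos) read 7.08, 6.87, 7.43 and 7.37 in controls and 6.05, 5.33, 5.63 and 6.31 with MMS (-1.36 ± 0.16). The ligand spitz (spi, -0.56 ± 0.08) and the inhibitors sprouty (sty, -0.49 ± 0.17) and Mkp3 (-0.36 ± 0.11) were lower, although Mkp3 read 0.08 on its other probe set. In the BMP, Wnt, Hedgehog, Notch and JAK-STAT list magu and the Hedgehog transcription factor ci (1.31 ± 0.19) were higher by 2-fold, and 5 of 27 were higher and 4 lower in all (5 and 15 after centring). In insulin signalling 3 of 11 genes were higher and 0 lower (2 and 1 after centring). Akt (0.81 ± 0.18) was higher and foxo was at -0.61 ± 0.28 (adjusted p = 0.0949). In the ecdysone list 6 of 18 genes were higher and 2 lower (5 and 7 after centring). By 2-fold 2 were higher and 1 lower, against 0 and 1 after centring. The nuclear receptor Eip78C rose (1.12 ± 0.16), and broad (br) read -1.27 ± 0.23 on its brightest probe set and -0.73 to -0.14 on the 4 others.

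The piRNA list, genes of small-RNA defence against transposons, held 1 of the largest decreases amid increases. AGO3, which takes part in piRNA amplification, read 8.40, 8.49, 8.51 and 8.81 in controls and 5.79, 4.97, 5.90 and 6.51 with MMS (adjusted p = 2.17e-10). Of the 22 genes 11 were higher and AGO3 alone was lower (8 and 5 after centring). The helicase spn-E (1.21 ± 0.14), fs(1)Yb (0.92 ± 0.12), cuff (0.88 ± 0.13), shu (0.82 ± 0.09) and papi (0.68 ± 0.12) were higher. The interaction called 9 members higher at 72 h than at 24 h and 0 lower at the adjusted p.

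Pigment and cuticle genes had 17 of 144 lower and 9 higher, close to the shares of all genes in the lower direction and under it in the higher, with 90 lower after centring. The 4 lower by 2-fold were TwdlE, e, y and the chitinase Cht4 (-1.60 ± 0.10), and the 3 higher were the cuticle proteins Cpr64Ac (1.80 ± 0.13) and Cpr49Ac (1.06 ± 0.11) and tan (t, 1.18 ± 0.11), which reverses the reaction of ebony.

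Markers of other cell types were read in the same arrays. Of 21 neuron markers 5 were higher and 0 lower, with a median of -0.05 (5 and 8 after centring, with a median of -0.21). The sodium pump subunit nrv3 (2.11 ± 0.18) and the RNA-binding protein elav (1.82 ± 0.14) were highest. The groups were separated for both, since nrv3 read 3.94 to 4.24 in controls and 5.45 to 6.81 with MMS, and elav 5.46 to 5.81 and 7.17 to 7.73. The receptor subunit nAChRalpha1 was higher on 1 probe set (1.08 ± 0.15) and at -0.31 on the other, and the synaptic gene Snap25 was at -0.71 ± 0.32 (adjusted p = 0.0954). The summed log2 level of the 21 genes, nrv3 and elav included, was 99.0 to 100.2 in controls and 102.7 to 105.2 with MMS. Of 14 muscle markers 1 was higher and 5 lower (0 and 7 after centring), and only 1 of the 14 had a mean of at least 5. Of 16 fat body and gut markers 3 were higher and 2 lower (1 and 10 after centring), and the trypsin Try29F rose (1.43 ± 0.15). The part of these markers in the other results was not tested. Of 4 reference genes, Gapdh1 (-0.01 ± 0.08), RpL32 (-0.17 ± 0.13) and Tbp (0.12 ± 0.09) did not pass, and the tubulin betaTub56D was lower at 72 h (-0.88 ± 0.07, adjusted p = 3.56e-12), with control values of 13.36 to 13.52 and MMS values of 12.34 to 12.69.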

How the data were processed

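The deposited table held log2 values of each probe set on each array, made with RMA per the submitters' processing notes (background correction, quantile normalization and a summary of the probes), with a version not given in the sources used here. Arrays carry no sequencing depth, and their number limits the precision. Of 18952 probe sets, 13646 were listed with 1 gene by the platform annotation, and 402 with several, 4721 without and 183 Affymetrix controls were left out. Of the genes, 1094 had several probe sets, and the brightest over all arrays was taken. Genes not named in the text were tested and counted with the others. There were 0 columns without a sample.

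Groups and replicate numbers came from the labels. Limma 3.58.1 in R 4.3.3 fitted 9 group means to all 36 arrays (27 residual and 5.37 prior degrees of freedom), after the procedure was tested on simulated data. The permutation analysis of the array service named in the study's methods was not used here, and limma took its place. Genes were called at an adjusted p under 0.05 and, where stated, a 2-fold or larger change, which is 1 in log2. Errors are SEs of the fit.

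The genes named in the text were drawn from several sets. These were the 15 largest increases and decreases with separated arrays, list members past 2-fold and up to 4 further members per list. The 8 largest differences between times in each direction and 8 regulators were added, and of the regulators Xbp1 is not analysed here. Not every list member past 2-fold is named, although all are in the counts. The 40 gene lists and the comparisons were chosen with earlier results of these data known. The alternatives were array centring, a further quantile normalization, the mean over probe sets, a minimum mean of 5, the 72 h arrays alone, an intensity trend with a robust prior, a replicate block and leaving out each array. A gene table gave current symbols, and 103 identifiers missing from it kept the annotation's symbol.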

Additional observations from a re-analysis of the deposited data

Results flagged for a closer look

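The effect of MMS differed between 24 and 72 h, by the interaction test, for 331 genes in the higher direction and 110 in the lower, with arg (3.33 ± 0.19) and GstD5 (-6.55 ± 0.26) at the ends. Among the 30 genes with the largest changes, 2 groups of 4 arrays held an array far from the other 3, where chance sets apart about 1 in 20 groups. In CG3246 it was control replicate 4 (4.62 against 4.57 in the others), whose gap made up 0.919 of the group's range. In GstD2 it was MMS replicate 3 (9.05 against 8.57 to 8.64), whose gap made up 0.861 of the range. Without these arrays the changes were 3.02 for CG3246 and -2.30 for GstD2.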

How the results depend on the processing

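The scaling mattered most. Centring of the arrays gave 298 increases and 149 decreases of 2-fold at 72 h, with 1407 increases and 5004 decreases when only p was required, and a further quantile normalization gave 323 and 141 of 2-fold. All 80 lower genes were called under both, and 298 and 322 of the 429 higher ones. With the replicate block all counts stayed within 1.5 times, at 428 higher and 80 lower. Deviations of same-numbered control and MMS arrays at 72 h correlated at -0.294 to -0.015, and those of arrays with different numbers at -0.16 to 0.258. Whether arrays with the same number share a culture was not stated in the sources used here. With the block and the 72 h arrays alone, an alternative chosen after seeing the data, 813 genes were lower at the adjusted p. Leaving out 1 array at a time gave 398 to 491 genes higher and 77 to 94 lower by 2-fold, 1699 to 2155 and 1116 to 1709 at the adjusted p alone, 293 to 406 and 108 to 130 for the differences between times, and 170 to 180 genes called at both times. Of the named genes, p53 turned from -0.20 to 0.32 with the mean of its probe sets, and centring took 35 below their threshold and 2 past it. Beside centring, further quantile normalization and the block with the 72 h arrays alone, no alternative moved these counts over all genes by over 1.5 times. Some counts of single lists moved by more. Further quantile normalization gave 17 lower DNA replication genes, 31 lower mitochondrial ribosomal proteins, 5 lower lipid genes and 4 higher nucleolar genes, and the minimum mean of 5 left 20 higher P450 genes of 30, 11 lower pigment and cuticle genes of 36, 3 higher neuron markers of 7, 1 higher exporter of 2 and 2 lower BMP to JAK-STAT genes of 18. Low signals limit the decreases of genes under a control mean of 5, where 109 of the 429 increases and 0 of the 80 decreases lay.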
